A study of Mus musculus with 2 samples.

Results

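The immediate early response genes described here are Fos, Fosb, Jun, Junb, Egr1, Atf3, Ier2, Ier3, Dusp1 and Zfp36. They were chosen by name, and all 10 were found among the 27275 genes of the deposited expression table. RNA had been measured in naive mouse small intestine, given as its proximal part in the study's design, with 1 library from Spib-deficient (KO) tissue and 1 from wild-type (WT) tissue. The KO genotype is labelled Spibfl/flVillin-Cre, a floxed Spib gene with Cre recombinase under the villin promoter, which is active in the gut epithelium and not in immune cells. The WT genotype is labelled Spib+Villin-Cre, so that both libraries carry the Cre transgene. Spib encodes a transcription factor of the ETS family. The labels state neither age nor sex, nor how many mice each library stands for. Each genotype has a single library, so the differences below have no replicate check and no test, and they compare these libraries.

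Immediate early genes are transcribed within minutes of a signal without new protein synthesis, because the factors that switch them on are already in the cell. Growth factors, cytokines, stress and mechanical handling act on them through MAP kinases, serum response factor (SRF) with its ETS partners, and CREB. Many of the products are transcription factors that go on to activate later genes, and others shut the signal down again. In the gut wall they are made by epithelium, muscle, stroma and immune cells.

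The knockout library had lower values of 8 of the 10 genes, and the differences were small. Of all genes with at least 1 FPKM in a library, 58.7% were lower in the KO library. Junb, Zfp36 and Fos were 1.49-fold, 1.43-fold and 1.33-fold lower in the KO library, Fosb was 2.25-fold lower at a level below 1 FPKM, and Jun and Ier3 were not lower. Summed over the 10 genes, the level was 187.7 FPKM in the KO library and 244 FPKM in the WT library, 1.30-fold lower. FPKM is the number of fragments per kilobase of gene and of the reads of its library, so that levels of different genes can be set side by side. Whole tissue was measured, so fewer cells of a type and less RNA per cell cannot be told apart.

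Spib itself had 0.592 FPKM in the KO library, from 30 reads, and 4.94 FPKM in the WT library, from 247 reads, in the direction of the labels. The reads implied by the values were 17658566 in the KO library and 17425640 in the WT library. Epithelial markers were high in both: Vil1, which encodes villin, had 856 FPKM in the KO library and 924 FPKM in the WT library, and the 11 markers summed to 10907 FPKM and 12002 FPKM in KO and WT. The counting intervals given beside folds are exact Clopper-Pearson intervals at 95%. They describe counting error alone and leave out variation between mice.

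Fos and Fosb encode FOS proteins, which bind DNA only as dimers with JUN proteins, together forming the factor AP-1. Fos, on the plus strand of chromosome 12 (85473890 to 85477273, mm10), was the most abundant of the 10 genes in both libraries. It had 48.4 FPKM in the KO library from 2010 reads and 64.3 FPKM in the WT library from 2635 reads, which is 1.33-fold lower (counting interval 1.25 to 1.41). Fosb lies on the minus strand of chromosome 7 (19302696 to 19310051) and was the least abundant. Its level was 0.417 FPKM in the KO library from 46 reads and 0.938 FPKM in the WT library from 102 reads, 2.25-fold lower (1.57 to 3.26). Fosb was the only member below 1 FPKM in both libraries, so it is left out of the counts against other genes below.

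Jun and Junb encode the JUN partners, and the pair did not go together. Jun (chromosome 4, 95049034 to 95052222, minus strand) had 26.2 FPKM in the KO library from 1475 reads and 25.7 FPKM in the WT library from 1429 reads, a KO to WT ratio of 1.02 whose interval of 0.947 to 1.096 holds 1. Junb (chromosome 8, 84974484 to 84978718, minus strand) had 36.0 FPKM in the KO library from 1463 reads and 53.5 FPKM in the WT library from 2147 reads. That is 1.49-fold lower (1.39 to 1.59), the largest difference among the 9 members that reached 1 FPKM. The ratio of Junb to Jun, which does not depend on how a library is scaled, was 1.38 in the KO library and 2.08 in the WT library. The ratio of Fos to Jun was 1.85 in the KO library and 2.50 in the WT library. Parts of the exons overlap other genes, 173 bases of Junb with Prdx2 on the other strand and 232 bases of Jun with the antisense gene Junos. The strand setting of the counting is not stated, so reads there cannot be assigned with certainty.

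Atf3 and Egr1 encode transcription factors of other kinds. ATF3 is a leucine zipper protein induced by stress that can pair with JUN proteins, and EGR1 is a zinc finger protein and a classical target of SRF. Atf3 (chromosome 1, 191170296 to 191218039, minus strand) had 12.4 FPKM in the KO library from 472 reads and 15.2 FPKM in the WT library from 569 reads, 1.22-fold lower (1.08 to 1.38). Egr1 (chromosome 18, 34859823 to 34864984, plus strand) had 2.75 FPKM in the KO library from 218 reads and 3.69 FPKM in the WT library from 288 reads, 1.34-fold lower (1.12 to 1.60). Egr1 was thus a low-level gene of this tissue, at the 30.6 percentile of compared genes in the KO library and the 36.5 percentile in the WT library. Fos lay at the 92.3 and 94.4 percentiles of the KO and WT libraries.

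Ier2 and Ier3 encode unrelated small proteins. IER2 is a nuclear protein that acts on transcription, and IER3 modulates cell survival and NF-kB signalling. Ier2 (chromosome 8, 84661331 to 84662852, minus strand) had 21.1 FPKM in the KO library from 567 reads and 26.1 FPKM in the WT library from 692 reads, 1.24-fold lower (1.11 to 1.38). It lies 311631 bases from Junb on the same chromosome. Ier3 (chromosome 17, 35821684 to 35822923, plus strand) had 4.81 FPKM in the KO library from 96 reads and 4.31 FPKM in the WT library from 85 reads. Its KO to WT ratio of 1.12 had an interval of 0.824 to 1.51, so a difference was not detectable at this depth.

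Dusp1 and Zfp36 encode brakes on the response. DUSP1 is a phosphatase that inactivates p38 and JNK MAP kinases, and ZFP36, also called tristetraprolin, binds AU-rich elements of mRNAs and speeds their decay. Dusp1 (chromosome 17, 26505590 to 26562128, minus strand) had 5.56 FPKM in the KO library from 265 reads and 7.38 FPKM in the WT library from 347 reads, 1.33-fold lower (1.13 to 1.56). Its read numbers are the smallest whole pair with the observed ratio, since the exon length in GENCODE M21 gave no whole number in the KO library. Zfp36 (chromosome 7, 28376784 to 28380253, minus strand) had 30.1 FPKM in the KO library from 1844 reads and 43.1 FPKM in the WT library from 2604 reads, 1.43-fold lower (1.35 to 1.52). Of its 3470 exonic bases, 125 overlap an antisense gene.

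**Figure D1:**
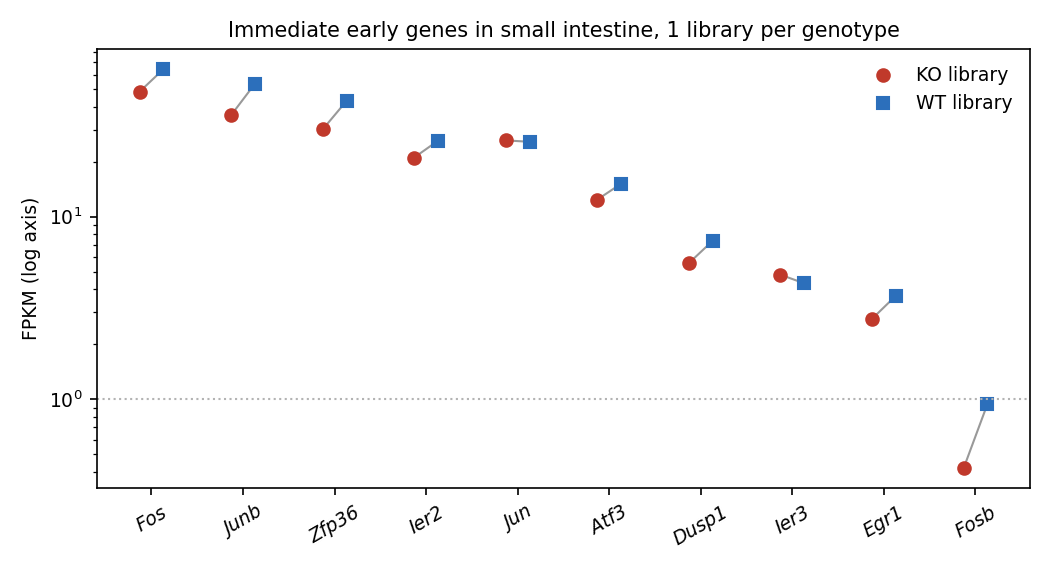
FPKM on a log axis of the 10 immediate early genes, ordered by their WT level, with the KO library as red circles and the WT library as blue squares (1 library each, no error bars) and a dotted line at 1 FPKM. KO points lie below WT points for 8 genes. The points of Jun (26.2 in KO, 25.7 in WT) and Ier3 (4.81 in KO, 4.31 in WT) lie close together. Of all genes with at least 1 FPKM in a library, 58.7% were lower in KO.

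The order of the levels was nearly the same in both libraries. Fos, Junb and Zfp36 led in both, and Jun stood ahead of Ier2 in the KO library, at 26.2 and 21.1 FPKM. In the WT library these genes were next to each other, at 25.7 FPKM for Jun and 26.1 FPKM for Ier2. Fos made up 25.8% of the summed level of the 10 genes in the KO library and 26.3% in the WT library. Junb made up 19.2% in the KO library and 21.9% in the WT library, and Jun 13.9% in the KO library and 10.5% in the WT library. From the highest to the lowest gene, levels spanned 116-fold in the KO library and 68.6-fold in the WT library.

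**Figure D2:**
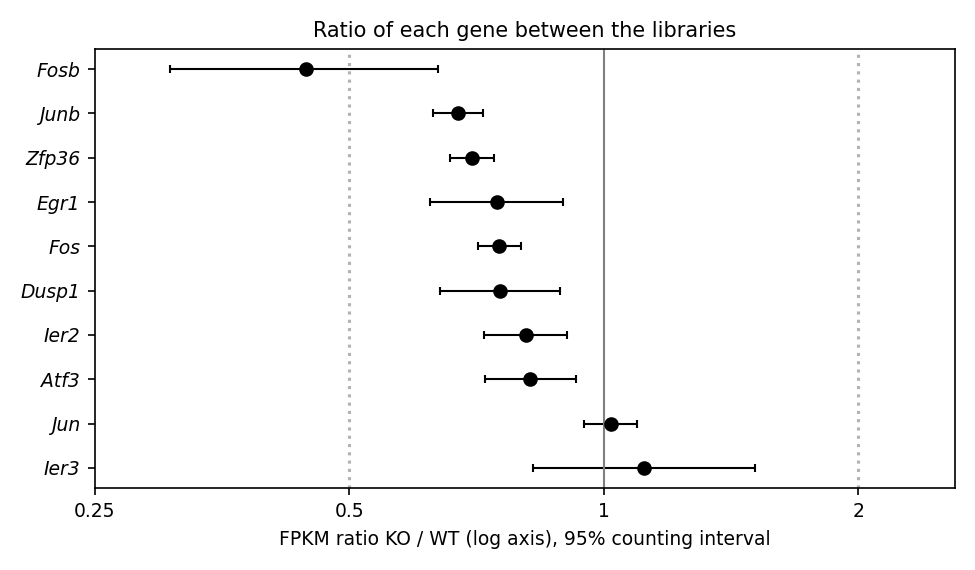
Ratio of FPKM in the KO library to FPKM in the WT library for each gene on a log axis, with the exact 95% counting interval as bars, a solid line at 1 and dotted lines at 0.5 and 2. The intervals of 8 genes lie below 1, and those of Jun and Ier3 hold 1. Among 11842 genes with at least 1 FPKM and reads from exon length, 27.9% had intervals below 1.

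Set beside all genes, none of the 9 compared members was at least 2-fold lower or higher in the KO library. The comparison held the 13479 genes with at least 1 FPKM in a library, and it used the log2 ratio of KO to WT after adding 1 to each FPKM, which understates differences of low genes. Of these 13479 genes, 2.51% were at least 2-fold lower in the KO library and 1.61% at least 2-fold higher. No compared member was past 1.5-fold on this scale, against 5.69% of all genes lower and 3.56% higher. Below 0 were 7 of the 9 members, against 58.7% of all compared genes. The median log2 ratio of the members was -0.32, and that of all compared genes was -0.05. Junb had the lowest log2 ratio, -0.56, at the 6.05 percentile of all compared genes, and Ier3 the highest, 0.13, at the 77.5 percentile. Zfp36 at -0.50, Fos at -0.40, Dusp1 at -0.35, Egr1 at -0.32, Ier2 at -0.29 and Atf3 at -0.27 lay between the 7.29 and 18.4 percentiles. All 7 were below the lower quartile of all genes, -0.21.

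By a rule chosen after seeing the data, 7 of the 9 compared members had a counting interval wholly below a ratio of 1. None had a counting interval wholly above 1. Among the 11842 compared genes whose reads followed from exon length, the shares were 27.9% below 1 and 17.2% above 1. Dusp1, counted among the 7, had its reads from the smallest whole pair and is not among those 11842 genes. None of the 9 had its whole interval past 1.5-fold, as 3.15% of those genes did in the lower direction and 1.77% in the higher. Such intervals narrow with depth. The compared members had a median of 567 reads in the KO library and 692 reads in the WT library, and those 11842 genes had medians of 390.0 and 401 reads in KO and WT.

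**Figure D3:**
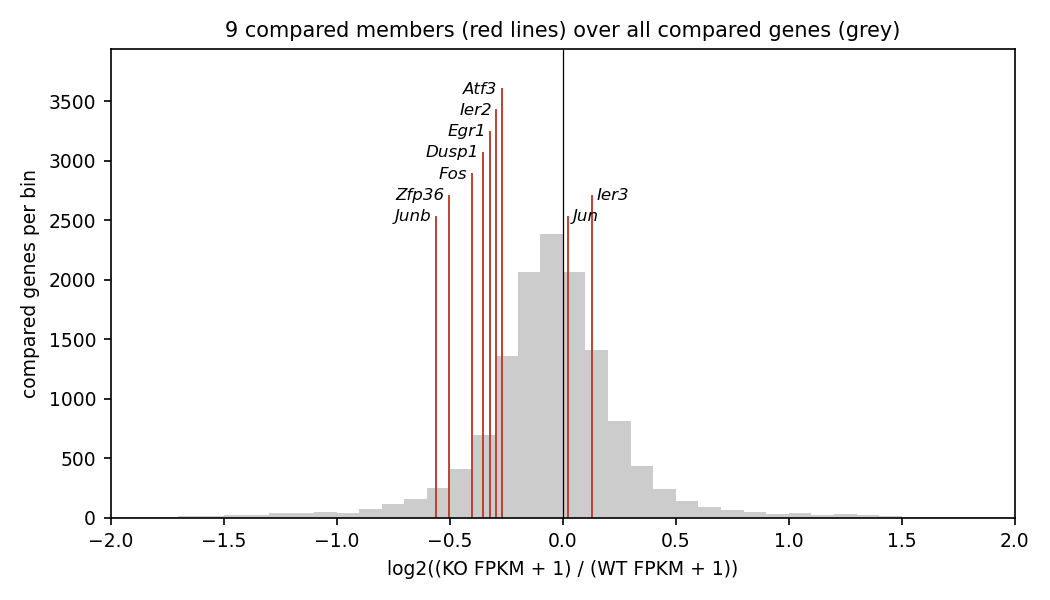
Number of compared genes (grey bars, 0.1 wide) by log2((KO FPKM + 1) / (WT FPKM + 1)), with red lines at the 9 compared immediate early genes; 143 genes lie outside the axis. The lines of 7 genes lie between -0.56 and -0.27, left of the peak, and those of Jun (0.03) and Ier3 (0.13) lie on its right side.

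The genes have features in common that did not serve to choose them. They are short, with a median transcribed span of 3286.5 bases against 21802 bases for the 11680 protein-coding genes compared, each by the transcript with the longest coding sequence. All 10 have at most 4 exons, and Jun, Junb and Ier2 have a single exon, whereas 20.3% of those protein-coding genes have at most 4. Their 3′ UTRs hold a median of 3.56 ATTTA pentamers per kilobase, against 1.21 over those protein-coding genes. The heptamer TATTTAT, a core of the AU-rich elements that ZFP36 binds, occurs in the 3′ UTRs of 7 of the 10 genes and of 26.8% of those genes. Ier3 has 4 of them, Dusp1 and Zfp36 have 3 each and Fos has 2, while Junb, Egr1 and Ier2 have none.

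Promoter sequences were matched for 8 of the 10 genes in RefSeq's table for GRCm38.p6, all except Egr1 and Ier2. The 250 bases before the RefSeq start are shown for Fos (chr12:85473640-85473889, plus strand), Junb (chr8:84978749-84978998, minus strand), Dusp1 (chr17:26508473-26508722, minus strand) and Zfp36 (chr7:28379229-28379478, minus strand), which were lower in the KO library, and for Jun (chr4:95052223-95052472, minus strand), which was not. Capitals mark TGACG, the core of the cAMP response element to which CREB and ATF proteins bind, on either strand, the CArG box of SRF and the sequence TATAAA.
Fos: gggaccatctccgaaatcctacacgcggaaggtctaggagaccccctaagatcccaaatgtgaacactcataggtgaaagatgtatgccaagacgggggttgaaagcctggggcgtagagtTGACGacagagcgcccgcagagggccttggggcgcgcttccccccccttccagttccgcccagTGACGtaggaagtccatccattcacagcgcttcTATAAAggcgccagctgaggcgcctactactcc
Junb: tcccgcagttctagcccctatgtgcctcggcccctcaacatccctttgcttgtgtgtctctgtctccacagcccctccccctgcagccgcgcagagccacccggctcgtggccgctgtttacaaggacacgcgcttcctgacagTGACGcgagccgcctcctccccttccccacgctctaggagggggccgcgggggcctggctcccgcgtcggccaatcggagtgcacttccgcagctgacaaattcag
Dusp1: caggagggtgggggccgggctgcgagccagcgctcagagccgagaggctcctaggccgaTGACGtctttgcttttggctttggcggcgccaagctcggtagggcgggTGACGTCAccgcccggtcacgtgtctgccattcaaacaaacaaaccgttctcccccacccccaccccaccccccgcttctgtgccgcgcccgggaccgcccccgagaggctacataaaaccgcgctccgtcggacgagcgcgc
Zfp36: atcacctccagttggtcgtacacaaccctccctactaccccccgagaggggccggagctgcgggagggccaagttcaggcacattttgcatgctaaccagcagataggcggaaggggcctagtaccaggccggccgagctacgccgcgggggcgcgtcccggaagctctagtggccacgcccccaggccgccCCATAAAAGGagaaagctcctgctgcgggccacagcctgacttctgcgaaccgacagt
Jun: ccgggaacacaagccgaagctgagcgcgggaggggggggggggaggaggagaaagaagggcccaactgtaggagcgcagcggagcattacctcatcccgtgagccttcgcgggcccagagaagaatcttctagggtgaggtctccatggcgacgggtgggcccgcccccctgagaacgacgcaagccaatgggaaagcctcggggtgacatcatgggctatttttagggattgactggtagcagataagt

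The core TGACG was found in 5 of the 8 promoters, those of Fos, Fosb, Junb, Atf3 and Dusp1, and in 17.8% of the 32851 promoters of the table. Dusp1 alone held the complete element TGACGTCA, which contains the core on both strands, and 1.55% of all promoters hold it. A CArG box lay 58 to 49 bases before the start of Zfp36, and 1.47% of all promoters have one in this window. TGANTCA, a form of AP-1 site, occurred in none of the 8 and in 6.75% of all promoters. Other forms of AP-1 site were not searched, so these promoters are not shown to lack one. The letters GAGGAA, a form of ETS site that SPIB can bind, were found in the promoters of Atf3 and Ier3 and in 23.3% of all. Other forms of ETS site were not searched. Matches describe the sequence and are not measured binding. Base composition was high in G and C, with a median of 65.0% over the 8 promoters against 52.4% over all.

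Most other AP-1 family genes had lower values in the KO library as well. Of the other 16 family genes compared, 14 had log2 ratios below 0 and 2 above, against 58.7% below 0 over all compared genes, with a median of -0.19 and none past 2-fold on this scale. The lowest was Batf2, named after its value was seen, with 5.97 FPKM in the KO library and 9.17 FPKM in the WT library. The FOS relative Fosl2 had 38.9 FPKM in the KO library and 40.1 FPKM in the WT library, a ratio whose interval of 0.936 to 1.002 holds 1. Atf4 encodes the translationally controlled factor of the integrated stress response, an activator of Atf3. It had 93.7 FPKM in the KO library and 129.7 FPKM in the WT library, 1.38-fold lower (1.25 to 1.54). That interval rests on 601 KO and 821 WT reads, the smallest whole pair with the observed ratio. The real read numbers can be higher. Jund had 8.62 FPKM in the KO library and 10.4 FPKM in the WT library. Over the FOS and JUN genes together, 7 in number, the sum was 159 FPKM in the KO library and 195.9 FPKM in the WT library. Junb held 22.6% of that sum in the KO library and 27.3% in the WT library, and Fosl2 held 24.4% in the KO library and 20.5% in the WT library.

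Other immediate early transcription factors had log2 ratios below 0 for 12 of the 17 compared and above 0 for 5, against 58.7% below 0 over all compared genes, and a median of -0.28. At least 2-fold lower was 1 gene, Cebpd, a C/EBP factor induced by STAT3 and acute-phase signals. Cebpd had 3.28 FPKM in the KO library from 217 reads and 10.98 FPKM in the WT library from 717 reads, 3.35-fold lower (2.87 to 3.92). The most abundant genes of the list went both ways. The epithelial differentiation factor Klf4 had 98.3 FPKM in the KO library and 93.8 FPKM in the WT library, and Klf6 had 66.3 and 59.0 FPKM in KO and WT. Id1, an inhibitor of basic helix-loop-helix factors induced by BMP signals, had 72.2 FPKM in the KO library and 91.9 FPKM in the WT library. Chosen for mention after their values were seen, Myc had 7.38 FPKM in the KO library and 13.1 FPKM in the WT library, and Nr4a1 had 1.58 and 2.78 FPKM in KO and WT. Bhlhe40, also chosen later, went the other way, with 25.5 and 16.2 FPKM in KO and WT, 1.58-fold higher (1.47 to 1.69). Counting intervals lay below 1 for 10 of the 17 and above 1 for 3. The shares were 27.9% and 17.2% among the compared genes whose reads followed from exon length.

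Effectors of the immediate early response had a median of -0.17 over 25 compared genes, 17 below 0 and 8 above, beside the same 58.7%. Socs3, which feeds back on STAT3 signalling, was the 1 gene at least 2-fold lower, with 9.42 FPKM in the KO library and 38.5 FPKM in the WT library, 4.08-fold lower (3.69 to 4.52). Nfkbia, the inhibitor of NF-kB, named after its value was seen, had a log2 ratio of -0.97, just inside 2-fold, with 25.4 FPKM in the KO library and 50.7 FPKM in the WT library. Ptgs2, also named later, went the other way, with 2.45 and 1.25 FPKM in KO and WT, 1.95-fold higher (1.53 to 2.51). Counting intervals lay below 1 for 11 of the 25 and above 1 for 5, beside the same shares of 27.9% and 17.2%. Sgk1, a kinase induced by glucocorticoids and mineralocorticoids, had 68.2 FPKM in the KO library and 110.5 FPKM in the WT library. The antiproliferative gene Btg2 had 45.3 FPKM in the KO library and 42.6 FPKM in the WT library, and the survival gene Mcl1 had 92.4 and 106.9 FPKM in KO and WT. Beside these folds, the highest among the 9 compared members was the 1.49-fold of Junb.

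The phosphatases related to DUSP1 and the Sprouty proteins, which restrain ERK signalling, went both ways. Their median log2 ratio was 0.07 over 13 compared genes, and none was past 2-fold on this scale. Of the 13, 5 were below 0 and 8 above, against 58.7% below 0 over all compared genes. Counting intervals lay below 1 for 4 of them and above 1 for 4. Among the compared genes whose reads followed from exon length, the shares were 27.9% and 17.2%. Dusp6, the ERK phosphatase, had 40.2 FPKM in the KO library and 36.9 FPKM in the WT library, against 5.56 and 7.38 FPKM for Dusp1. Dusp16 had 7.01 FPKM in the KO library and 5.81 FPKM in the WT library, and Dusp5 had 6.14 and 5.01 FPKM in KO and WT. Named after their values were seen, Dusp2 had 17 reads in the KO library and 37 reads in the WT library, and Spry4 and Spry1 were lower in the KO library too.

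Lists of genes of the pathways upstream had medians closer to that of all genes, though most activators were lower in the KO library. The activators SRF, its ETS and MRTF partners and CREB numbered 14 genes with a median log2 ratio of -0.13, none past 2-fold. Of these, 13 were below 0 and 1 above, against 58.7% below 0 over all compared genes. Counting intervals lay below 1 for 6 and above 1 for 0, against 27.9% and 17.2% of the compared genes whose reads followed from exon length. Srf had 12.5 FPKM in the KO library and 15.2 FPKM in the WT library. MAP kinase cascade genes had a median of -0.09 over 21, 15 below 0 and 6 above. Mapk3, which encodes an ERK kinase, had 129.0 FPKM in the KO library and 133 FPKM in the WT library. The EGF receptor family and its ligands had a median of -0.08 over 9, 5 below 0 and 4 above. The receptor gene Erbb3 had 69.2 FPKM in the KO library and 84.4 FPKM in the WT library. These are RNA levels and say nothing of the activity of the kinases.

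Targets of ZFP36 were mostly too low to compare. Of 12 cytokine and inflammatory genes with AU-rich mRNAs, 3 reached 1 FPKM. They were Ptgs2, the inducible cyclooxygenase, with 2.45 FPKM in the KO library and 1.25 FPKM in the WT library, Lif with 1.37 and 1.504 FPKM in KO and WT, and Ccl3 with 0.813 and 1.27 FPKM in KO and WT. Tnf had 5 reads in the KO library and 15 reads in the WT library.

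**Figure D4:**
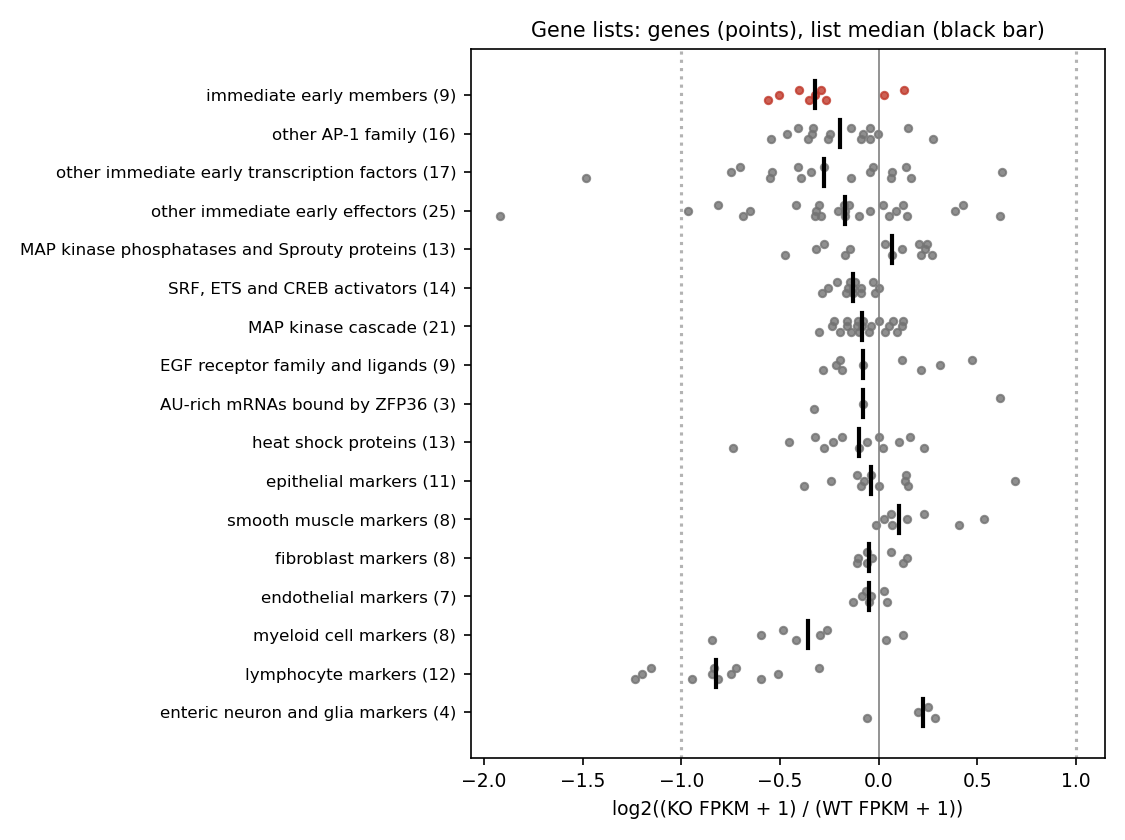
Log2((KO FPKM + 1) / (WT FPKM + 1)) of each compared gene (points) in the immediate early set (red), related lists and cell type markers (grey), with the list median as a black bar, the number of genes in brackets, and dotted lines at 2-fold. The immediate early median lies at -0.32, the lymphocyte marker median at -0.82 and the median of MAP kinase phosphatases at 0.07.

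Most markers of immune cells were lower in the KO library beside these differences, and immune cells are a known source of FOS, JUNB and ZFP36. All 12 lymphocyte markers had log2 ratios below 0, with a median of -0.82 and 3 genes at least 2-fold lower, Cd79a, Cd79b and Trac. Over all compared genes, 58.7% were below 0 and 2.51% at least 2-fold lower. The 12 summed to 19.6 FPKM in the KO library and 45.0 FPKM in the WT library, and none was at 0. Of the 8 myeloid markers compared, 6 were below 0, with a median of -0.36. The 2 above 0, named after their values were seen, were Adgre1 (5.515 FPKM in KO, 4.99 in WT) and Fcgr1 (1.14 in KO, 1.09 in WT). The 10 measured myeloid markers summed to 90.05 FPKM in the KO library and 131 FPKM in the WT library. The neutrophil genes S100a8 and S100a9 had 0 reads in the KO library and 3 and 4 reads in the WT library. Their counting intervals hold 1, so a difference was not detectable at this depth. The part of these cells in the values of Junb, Zfp36, Fos and Dusp1 was not tested.

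Fibroblast markers had a median of -0.05 over 8 genes, endothelial markers -0.05 over 7 and epithelial markers -0.04 over 11. Smooth muscle markers had a median of 0.11 over 8 genes, 7 above 0 and 1 below, against 58.7% below 0 over all compared genes. Their counting intervals lay above 1 for 4, against 17.2% of the compared genes whose reads followed from exon length. Actg2 had 114 FPKM in the KO library and 78.6 FPKM in the WT library, and Acta2 had 208 and 210.2 FPKM in KO and WT. The 4 compared markers of enteric neurons and glia had a median of 0.23. Heat shock protein genes, which respond to stress and handling, had a median of -0.10 over 13, with none past 2-fold. Hspa8, the constitutive chaperone, had 393 FPKM in the KO library and 387 FPKM in the WT library. The inducible Hspa1b, named after its value was seen, had 5.74 FPKM in the KO library and 10.3 FPKM in the WT library, 1.79-fold lower (1.54 to 2.08), and it can share reads with its near-identical copy Hspa1a. The labels do not say how long the tissue waited before the RNA was taken, and the part of handling in these values was not tested.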

How the data were processed

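RNA of small intestine was extracted with TRIzol and its cDNA amplified by SMART-Seq II, per the labels' protocols. The authors deposited 1 FPKM value per gene and library, scaled by gene length and library size. The submitters' processing notes name Bowtie2 2.2.3, HTSeq 0.6.0 and mm10, with no role for each. Annotation release, filters and strand setting: not given in the sources used here. How reads of overlapping or near-identical genes were divided can therefore affect single values.

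Groups came from the sample titles and columns were matched by name. Genes with at least 1 FPKM in a library were compared by log2((KO + 1) / (WT + 1)). Plain folds carry no pseudocount. FPKM times exon length in GENCODE M21 (the same assembly as mm10) stepped in whole reads, within 0.01, for 90.5% of nonzero values of either library. The step size gave the library's read total. For other genes the smallest whole pair with the observed ratio was used. A floor of 3 reads equals 0.170 FPKM in KO and 0.172 FPKM in WT for a gene of 1 kb. Read recovery and intervals were checked on simulated data. With 1 library per genotype no p-value was computed. Amplified reads carry no molecular identifiers and can be copies of a molecule, so the intervals can be too narrow.

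The members and gene lists were chosen with earlier results of these data known. Named from each list were genes past 2-fold and up to 4 of the most abundant ones, and other names are marked as chosen later. Egr4 and Erbb4 were not analysed here. Python 3.11.15, pandas 2.3.3, NumPy 2.4.6, SciPy 1.17.1 and matplotlib 3.10.9 were used. Alternatives varied the pseudocount, the filter, the scaling and the fold limit.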

Additional observations from a re-analysis of the deposited data

How the results depend on the processing

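Of the members that passed the filter of each setting, none was at least 2-fold higher or lower in the KO library. This held with pseudocounts of 0.1 and 5, with at least 5 FPKM in a library, under both rescalings and without a filter. Leaving out the filter takes in Fosb but keeps the pseudocount of 1. On that scale a gene below 1 FPKM in both libraries cannot reach 2-fold, so this setting could not count Fosb. With a 1.5-fold limit, or with the whole counting interval past 1.5-fold, the counts were also 0 lower and 0 higher. The filter of 1 FPKM kept Fosb out of both counts. Its interval, 1.57 to 3.26-fold lower, lies wholly past 1.5-fold. A rule chosen after seeing the data, a counting interval wholly below a ratio of 1, counted 7 members as lower. Of the compared genes whose reads followed from exon length, 27.9% had such an interval. The median log2 ratio of the members ranged from -0.40 with a pseudocount of 0.1 to -0.23 with a pseudocount of 5, and it was -0.27 when centred on the median of all genes. No member's log2 ratio changed sign under these settings. Fosb moved most, to -1.004 with a pseudocount of 0.1, which is past 2-fold lower, but at that setting the filter of 1 FPKM keeps it out of the count. Without a filter and with a pseudocount of 1, the median over all 10 was -0.34. With a pseudocount of 5 the lymphocyte marker median was -0.30, with none of 12 past 2-fold, and Cebpd was within 2-fold. At that setting 0.905% of all compared genes were at least 2-fold lower, and genes below 5 FPKM in both libraries cannot reach 2-fold. With a pseudocount of 0.1 the lymphocyte marker median was -1.33, with 10 past 2-fold lower, against 4.27% of all compared genes. No replicate could be left out and no paired analysis was possible because there is 1 library per genotype. The spread between mice is unknown.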
